A study of Mus musculus with 18 samples.

Results

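Ribosome-associated quality control was followed in the liver through the mRNAs of 10 genes. The genes were chosen by name and matched by symbol to the Ensembl identifiers of the deposited counts. Earlier results of these data were known at the time, so counts of members called are given as a description. They were *Ltn1*, *Nemf*, *Tcf25*, *Ankzf1*, *Pelo*, *Hbs1l*, *Abce1*, *Ascc3*, *Ascc2* and *Gigyf2*, of 22524 genes counted. All 10 passed the filter on low counts, as did 13353 genes in all. Each library came from the liver of one female C57BL/6 mouse aged 15 months. The 10 A226Y mice were heterozygous for *Rps2*-A226Y, a ribosomal ambiguity mutation that raises the translation error rate, and had been bred with CMV-Cre mice to excise a *loxP*-flanked stop cassette. The 8 WT mice carried wild-type *Rps2* and CMV-Cre. The study's methods state that excision was never complete, so the A226Y livers were mosaics of cells with the mutant allele and cells with the silenced *loxP* allele. CMV-Cre acts in all tissues, so the genotype was not restricted to the liver.

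A ribosome that stalls before the end of its message is split into subunits, and the unfinished chain stays attached to the large subunit through its tRNA. NEMF binds this complex, adds a tail of amino acids to the chain and recruits the ubiquitin ligase listerin, the product of *Ltn1*. The tagged chain is then released and destroyed by the proteasome. Other members act earlier, on collided or stalled ribosomes, or shut down new initiation on the faulty message. Since A226Y ribosomes misread codons and read through stop codons, the comparison asked whether the mRNAs of this machinery differed between the genotypes. *Rps2* mRNA was also lower in A226Y mice (log2 fold change -0.73, edgeR, adjusted p = 0.000772). The effects of misreading and of less *Rps2* cannot be told apart in these mice. The paper compared mice with the silenced *loxP* allele to wild-type mice separately and reported few differing genes. Those mice are not among the samples used here.

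In the A226Y mice, 4 of the 10 mRNAs were higher and none was lower by the test across all genes. *Abce1* rose by 24.2% and *Ascc3* by 22.4%, while *Nemf* rose by 16.7% and *Ltn1* by 14.2%. These genes encode the ribosome-splitting ATPase, the helicase that takes collided ribosomes apart, the sensor of the stalled large subunit and the ligase that it recruits. For comparison, 7.27% of all tested genes were higher in A226Y and 7.03% were lower at an adjusted p-value under 0.05 (edgeR's quasi-likelihood test, two-sided, adjusted with the Benjamini-Hochberg method). No member separated the genotypes fully, and groups without overlap were also rare among all tested genes (0.352% with A226Y higher and 0.285% with A226Y lower). The median log2 fold change was 0.12 over the members and -0.0044 over all tested genes. The calls depended on the processing, for the members and for all genes. An offset for GC content or for exon length left 2 members called (12.3% and 11.7% of all tested genes). Leaving out WT mouse 13, 14 or 24 also left 2 (1334, 1255 and 1310 genes, against 1910 in the reported fit). With 4 surrogate variables, or without all 3 of these mice, 0 members were called (2.13% and 0.982% of all tested genes).

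The 4 genes that rose lie on chromosomes 8, 10, 12 and 16. The bases upstream of their starts are shown because these mRNAs passed the same test. Each line holds the 250 bases before the RefSeq start, 5′ to 3′ on the strand of the gene, in build GRCm38.p6, with matches to CCAAT, TGACGTCA or TGACGTGG on either strand in capitals. *Abce1* is at chr8:79711741-79711990 (minus strand), *Ascc3* at chr10:50592419-50592668 (plus strand), *Nemf* at chr12:69357177-69357426 (minus strand) and *Ltn1* at chr16:87432607-87432856 (minus strand).
Abce1: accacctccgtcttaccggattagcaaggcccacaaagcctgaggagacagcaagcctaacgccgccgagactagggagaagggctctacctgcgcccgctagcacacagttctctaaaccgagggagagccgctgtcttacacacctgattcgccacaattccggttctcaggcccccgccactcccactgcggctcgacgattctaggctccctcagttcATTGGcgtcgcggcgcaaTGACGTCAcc
Ascc3: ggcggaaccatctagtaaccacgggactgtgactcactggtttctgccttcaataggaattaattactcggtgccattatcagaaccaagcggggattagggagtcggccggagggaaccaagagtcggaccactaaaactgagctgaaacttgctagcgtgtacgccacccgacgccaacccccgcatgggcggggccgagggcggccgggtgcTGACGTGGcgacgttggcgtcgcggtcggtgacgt
Nemf: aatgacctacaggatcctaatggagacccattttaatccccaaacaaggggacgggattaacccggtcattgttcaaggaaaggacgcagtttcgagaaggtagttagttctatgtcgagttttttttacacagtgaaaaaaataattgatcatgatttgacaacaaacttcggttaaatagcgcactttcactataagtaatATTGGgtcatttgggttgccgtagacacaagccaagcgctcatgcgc
Ltn1: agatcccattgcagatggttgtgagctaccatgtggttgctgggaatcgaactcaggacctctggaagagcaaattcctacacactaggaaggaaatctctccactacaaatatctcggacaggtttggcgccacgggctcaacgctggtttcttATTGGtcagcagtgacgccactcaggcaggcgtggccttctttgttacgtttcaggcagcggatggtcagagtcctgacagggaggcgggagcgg

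A CCAAT match (ATTGG on the other strand) stood in 3 of them, in *Abce1*, *Nemf* and *Ltn1*, and 33.9% of 32851 promoters in RefSeq hold one in the same window. *Abce1* also had TGACGTCA, the cAMP response element, 10 bases before its start, which 1.55% of promoters hold. *Ascc3* had TGACGTGG, a letter string known from promoters that answer the unfolded protein response, which the study did not find activated in A226Y liver. This string is held by 0.563% of promoters and shares its first letters with the cAMP response element. Of the members that did not pass the test, *Hbs1l* had the same string (CCACGTCA on its own strand). Among the 10 members, 5 had a CCAAT match and 4 a GC box (GGGCGG, held by 32.7% of promoters). None had the amino acid response element TGATGNAA (3.45%), the heat shock element GAANNTTC (6.69%), the ETS motif CCGGAAG (6.91%), the YY1 motif AAGATGGCG (0.606%) or TATAAA (12.4%) in this window. The GC content of these 250 bases was 60.4% in *Abce1*, 60% in *Ascc3*, 54% in *Ltn1* and 41.2% in *Nemf*, with a median of 52.4% over all promoters. The start of *Abce1* lies 80 bases from that of *Anapc10*, which is read in the other direction.

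The total counts of the libraries ranged from 23850565 to 62126131, and every member had at least 396 reads in every mouse. *Rps2*, the targeted gene, had 46.9 to 83.0 CPM in A226Y mice (median 72.5) and 104 to 143 CPM in WT mice (median 109), without overlap. CPM are read counts relative to the library size after TMM scaling. As a check of the tissue, the summed level of 5 hepatocyte markers (*Alb*, *Ttr*, *Apoa1*, *Cps1*, *Hnf4a*) lay between 63986 and 166169 CPM in all mice, and lists for 8 other cell types each stayed at or below 701 CPM. The macrophage list (*Clec4f*, *Vsig4*, *Adgre1*, *Cd68*, *Marco*) summed to 154 to 548 CPM in A226Y (median 198) and 222 to 397 CPM in WT mice (median 299; two-sided exact permutation test, p = 0.0529, unadjusted). The stellate cell list (*Lrat*, *Reln*, *Des*, *Col1a1*, *Dcn*) summed to 294 to 355 CPM in A226Y (median 333) and 282 to 359 CPM in WT mice (median 296; exact permutation test, p = 0.0301, unadjusted over 9 lists). Of the 40 markers tested, 3 passed the test (*Cps1* higher, *Clec4f* and *Col1a1* lower in A226Y). The part of cell composition in the members' results was not tested, and in whole tissue fewer cells of a type cannot be told from less RNA per cell.

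**Figure D1:**
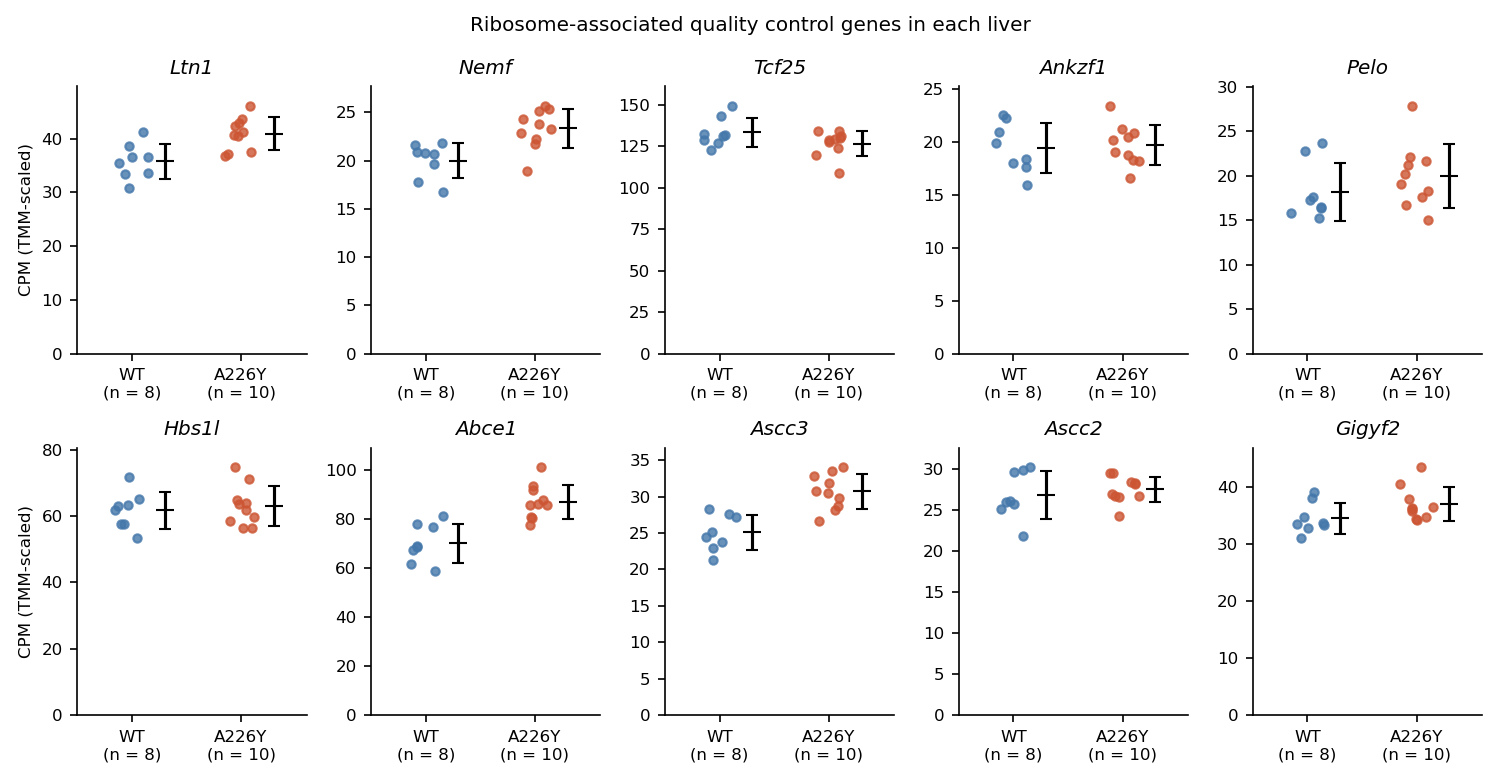
Level of each of the 10 genes in every mouse, in TMM-scaled CPM (vertical axes starting at 0), with the mean and SD beside the points of 8 WT (blue) and 10 A226Y (orange) mice. *Abce1*, *Ascc3*, *Nemf* and *Ltn1* are shifted upward in A226Y with overlapping ranges, and the other 6 genes have largely shared ranges.

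Among the factors that free and split ribosomes, *Abce1* (ENSMUSG00000058355, chromosome 8, 79683462 to 79711740, minus strand, GRCm38) had the largest log2 fold change of the members. ABCE1 is an iron-sulphur ATPase that separates the subunits after termination and after rescue. Its level ran from 77.8 to 101 CPM in A226Y mice (median 86.1) and from 58.9 to 81.2 CPM in WT mice (median 69.0). All 10 A226Y mice lay above the WT mean and 7 of them above every WT mouse, while 6 of 8 WT mice lay below every A226Y mouse. The means were 87.2 ± 6.95 CPM (SD, n = 10) and 70.2 ± 7.88 CPM (SD, n = 8). On the log2 scale the increase was 0.31, with a standard error of 0.07 and an adjusted p in edgeR of 0.00594, and the two-sided exact permutation test of log2 CPM gave p = 0.00016. It stayed past the threshold with any 1 mouse left out (0.28 to 0.34) but lost the call with 4 surrogate variables (0.16, adjusted p = 0.214) and without WT mice 13, 14 and 24 (0.23, adjusted p = 0.0928).

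PELO recognises the empty or blocked site of a stalled ribosome, and the GTPase HBS1L delivers it there. *Pelo* (ENSMUSG00000042275, chromosome 13, 115088355 to 115090186, minus strand) was measured at 15.1 to 27.9 CPM in A226Y (median 19.7) and at 15.3 to 23.7 CPM in WT mice (median 16.9). The A226Y range enclosed that of the WT mice, and the gene was the most variable member, with a coefficient of variation of 17.9% in both genotypes. Its log2 fold change was 0.14 (95% interval -0.09 to 0.37). Newer annotation places 46.2% of its exon bases inside *Gm49395*, a gene on the same strand that the deposited counts do not list, so its value is uncertain.

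*Hbs1l* (ENSMUSG00000019977, chromosome 10, 21295979 to 21368898, plus strand) had 56.3 to 74.7 CPM in A226Y (median 62.7) and 53.4 to 71.8 CPM in WT mice (median 62.5). The medians nearly coincided, and the log2 fold change was 0.03 (95% interval -0.10 to 0.17). An increase of the size of that of *Abce1* lies outside this interval. The fold changes of *Abce1* and *Hbs1l* were not tested against each other.

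The ASC-1 complex pulls collided ribosomes apart. Its helicase, *Ascc3* (ENSMUSG00000038774, chromosome 10, 50592669 to 50851485, plus strand), had the smallest p-value of the members. The level ran from 26.6 to 34.0 CPM in A226Y (median 30.7) and from 21.2 to 28.3 CPM in WT mice (median 24.8). Of the 10 A226Y mice, 8 exceeded every WT mouse and the other 2 exceeded the WT mean. With means of 30.7 ± 2.43 CPM (SD, n = 10) and 25.1 ± 2.45 CPM (SD, n = 8), the log2 fold change was 0.29 with a standard error of 0.06 (edgeR, adjusted p = 0.00563). The exact permutation test gave p = 0.000297, and with 1 mouse left out the log2 fold change stayed between 0.26 and 0.32 and past the threshold. The call was lost with 4 surrogate variables (0.17, adjusted p = 0.0945) and without WT mice 13, 14 and 24 (0.24, adjusted p = 0.0919), and an offset for exon length lowered the value to 0.16.

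*Ascc2* (ENSMUSG00000020412, chromosome 11, 4637747 to 4685699, plus strand) encodes the subunit of the same complex that binds the ubiquitin placed on collided ribosomes. Its range was 24.3 to 29.5 CPM in A226Y (median 27.6) and 21.9 to 30.2 CPM in WT mice (median 26.1). The WT range enclosed the A226Y range, and the log2 fold change was 0.04 (95% interval -0.09 to 0.16).

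On the split large subunit, NEMF and listerin act as a pair. *Nemf* (ENSMUSG00000020982, chromosome 12, 69310522 to 69357165, minus strand) ran from 19.0 to 25.7 CPM in A226Y (median 23.5) and from 16.7 to 21.8 CPM in WT mice (median 20.7). The ranges overlapped through A226Y mouse 5, the lowest, and A226Y mouse 15 at 21.7 CPM, while the other 8 lay above every WT mouse. The log2 fold change was 0.22 with a standard error of 0.06 (edgeR, adjusted p = 0.0264, and exact permutation p = 0.0029). Without WT mouse 13, 14 or 24 its adjusted p-value was 0.0503, 0.0598 or 0.0574, and without all 3 the log2 fold change was 0.14 (adjusted p = 0.245). The call was also lost with the offsets for GC content and exon length, and with 4 surrogate variables the value was 0.099 (adjusted p = 0.494). A stretch of 1.57% of its exon bases is shared with *Klhdc2* on the opposite strand.

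*Ltn1* (ENSMUSG00000052299, chromosome 16, 87376651 to 87432612, minus strand) had 36.7 to 46.1 CPM in A226Y (median 40.9) and 30.9 to 41.3 CPM in WT mice (median 36.0). No A226Y mouse fell below the WT mean, but only 4 exceeded every WT mouse, since WT mouse 28 reached 41.3 CPM. The log2 fold change was 0.19 with a standard error of 0.06 (edgeR, adjusted p = 0.0351, and exact permutation p = 0.004). It had an adjusted p-value under 0.05 in 10 of the 18 fits that left out 1 mouse, and the highest value was 0.0758, without WT mouse 24. It was also not called with either offset, with 4 surrogate variables (0.095, adjusted p = 0.433) or without WT mice 13, 14 and 24 (0.13, adjusted p = 0.286). The mice whose omission ended the call were A226Y 7, 11, 15 and 23 and WT 13, 14, 21 and 24.

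The remaining factors of the large-subunit complex did not pass the test. *Tcf25* (ENSMUSG00000001472, chromosome 8, 123373753 to 123403835, plus strand), the mammalian counterpart of the yeast factor Rqc1, was the only member with a negative log2 fold change, of -0.07 (95% interval -0.18 to 0.04). It ran from 109 to 134 CPM in A226Y (median 129) and from 123 to 149 CPM in WT mice (median 131). The genotypes shared most of their ranges, with WT mice 6 and 24 above every A226Y mouse and A226Y mice 23 and 15 below every WT mouse.

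*Ankzf1* (ENSMUSG00000026199, chromosome 1, 75192151 to 75199387, plus strand) encodes the enzyme that frees the stalled chain from its tRNA. It had 16.6 to 23.4 CPM in A226Y (median 19.6) and 15.97 to 22.6 CPM in WT mice (median 19.2). The groups lay on top of each other, with a log2 fold change of 0.02 (95% interval -0.14 to 0.17). Its exons share 9.82% of their bases with *Glb1l* on the opposite strand.

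*Gigyf2* (ENSMUSG00000048000, chromosome 1, 87326998 to 87450796, plus strand) encodes a protein that represses initiation on messages with stalled ribosomes together with the cap-binding protein of *Eif4e2*. Its level was 34.2 to 43.4 CPM in A226Y (median 36.3) and 31.0 to 39.2 CPM in WT mice (median 33.6). All 10 A226Y mice were above the WT median, yet 2 WT mice reached the upper part of the A226Y range. The log2 fold change was 0.10 (95% interval -0.02 to 0.22), and edgeR gave an adjusted p of 0.241 (exact permutation p = 0.0741).

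Set against transcript composition, the 4 members that rose were also those of lowest GC content. The GC content of the longest transcript was 40.3% for *Abce1*, 42.1% for *Ascc3*, 42.4% for *Nemf* and 42.6% for *Ltn1*, and 48.2% to 57.9% for the other 6. The same 4 genes belonged both to the third of tested genes with the lowest GC content and to the third with the longest merged exons. None of the other 6 did. Of the 2050 tested genes that met both conditions, 19.7% were higher in A226Y by the same test and 2.39% were lower, and their median log2 fold change was 0.11.

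The libraries themselves differed along length. The length tilt, which is the mean centred log2 CPM of the third of tested genes with the longest exons minus that of the third with the shortest, ran from -0.01 to 0.17 in A226Y and from -0.18 to 0.00 in WT mice (difference 0.14; two-sided exact permutation test, p = 0.00032). WT mice 13, 14 and 24 had the lowest values (-0.13, -0.18 and -0.17), and mice 14 and 24 were also among the 3 lowest WT mice for *Abce1*, *Ascc3*, *Nemf* and *Ltn1*. Without these 3 mice, a choice made after the data were seen, none of the 10 members and 131 of all genes (0.982%) passed the test in edgeR, and 3 members (*Abce1*, *Ascc3* and *Nemf*) had an unadjusted p-value under 0.05, as did 18.5% of all tested genes. With all mice, 4 members and 29.6% of all tested genes had one. Without the 3 mice the log2 fold changes were 0.24 for *Ascc3*, 0.23 for *Abce1*, 0.14 for *Nemf* and 0.13 for *Ltn1*. The same tilt for GC content was -0.14 to 0.26 in A226Y and -0.03 to 0.21 in WT mice (exact permutation test, p = 0.0745). A226Y mouse 29 alone made the upper end of the A226Y range, since the other 9 lay at -0.0052 or below, and without this mouse 2560 genes were called. On the length tilt the genotypes overlapped by a narrow margin, and its part in the members' results was examined with the offsets given next.

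**Figure D2:**
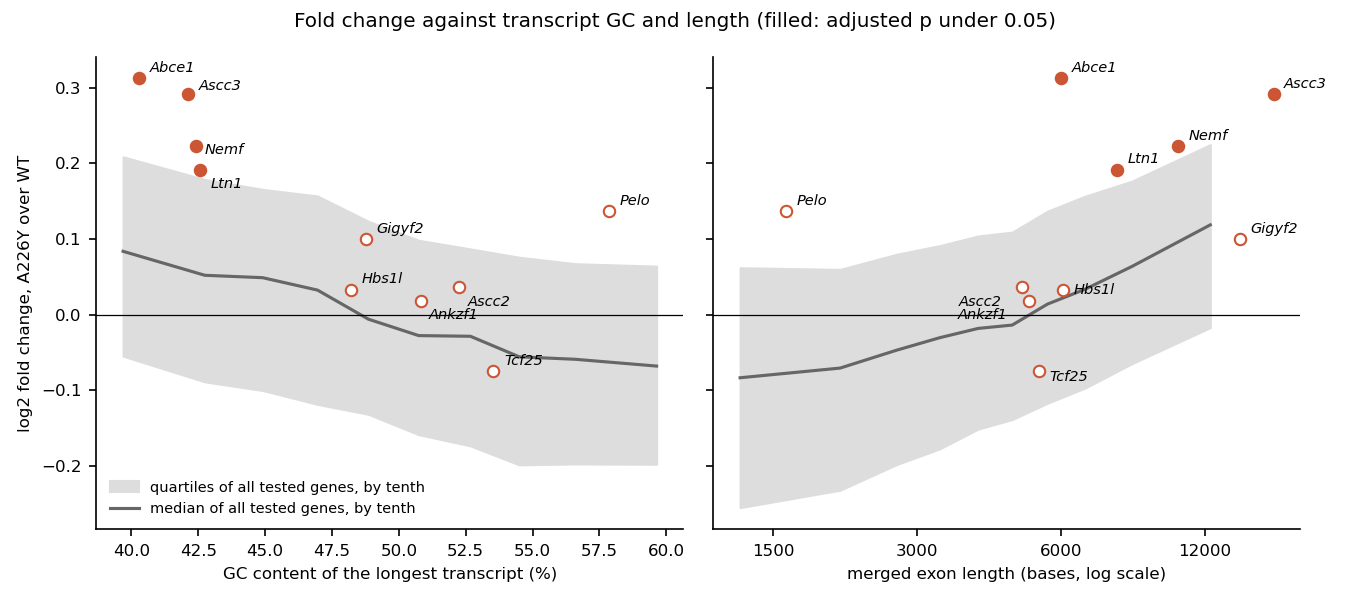
Log2 fold change of each member (points, filled where the adjusted p-value was under 0.05) against the GC content of its longest transcript (left, percent) and its merged exon length (right, bases, log scale), with the median and quartiles of all tested genes in 10 bins of equal size (line and grey band). The 4 members that rose have the lowest GC content, between 40.3% and 42.6%, and lie above the band or at its edge.

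With a per-library offset for GC content, under which 12.3% of all tested genes were called, *Abce1* (log2 fold change 0.24, adjusted p = 0.0249) and *Ascc3* (0.23, adjusted p = 0.0148) passed in edgeR, while *Nemf* (0.17, adjusted p = 0.0895) and *Ltn1* (0.13, adjusted p = 0.079) did not. With an offset for exon length (11.7% of genes called) the same 2 genes passed, *Abce1* at 0.30 (adjusted p = 0.00649) and *Ascc3* at 0.16 (adjusted p = 0.0397). The log2 fold change of *Ascc3*, the longest member with 16685 exon bases, was thus lower by more than 1.5 times under the length offset, as was that of *Nemf* (0.14, adjusted p = 0.124), while *Ltn1* was at 0.14 (adjusted p = 0.0846). An offset on the longest transcript, chosen after the data were seen, kept 3 members past the threshold, including *Nemf* (0.20, adjusted p = 0.041), and placed *Ltn1* at 0.085 (adjusted p = 0.276). With 4 surrogate variables none of the members passed in edgeR, where 2.13% of all tested genes did, and 2 members (*Abce1* and *Ascc3*) had an unadjusted p-value under 0.05, as did 18% of all tested genes. Without a filter on low counts 8.97% of genes were called and *Ltn1* was lost (adjusted p = 0.0506). DESeq2, which called 18.1% of all tested genes, and limma-voom, which called 14%, each called the same 4 members as the fit reported above.

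**Figure D3:**
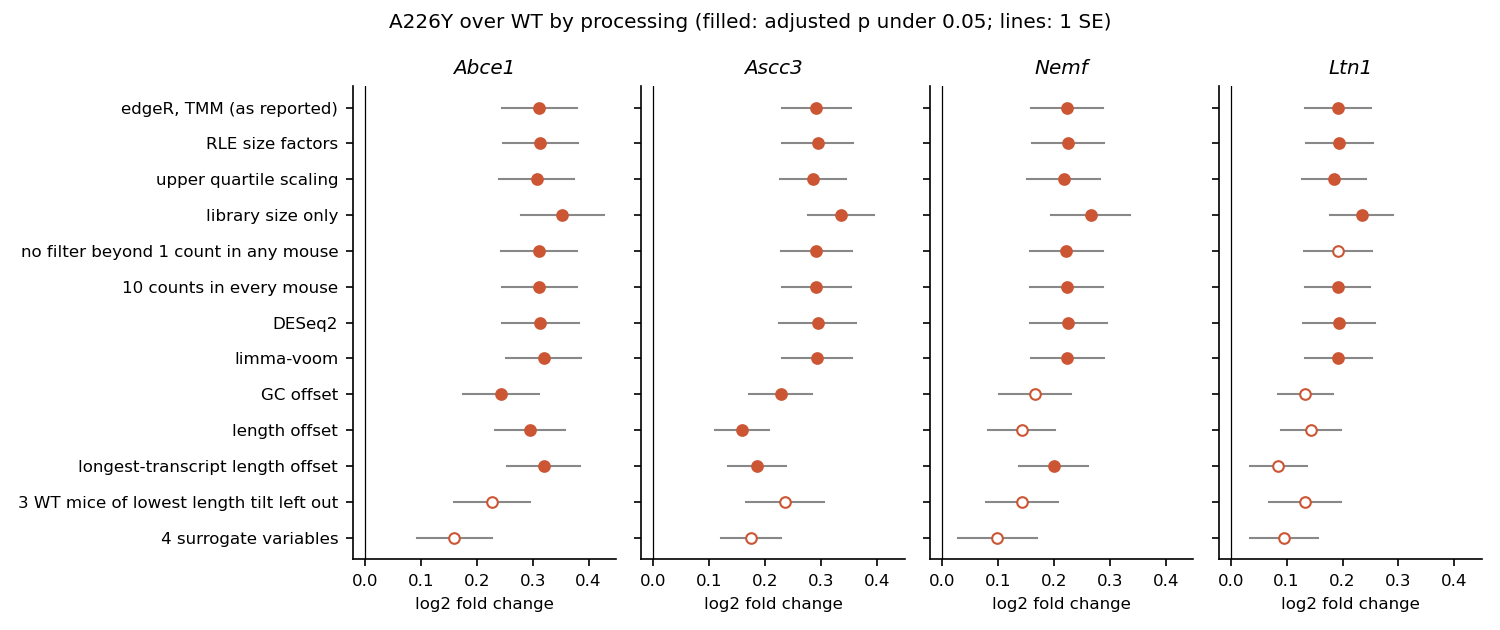
Log2 fold change of the 4 members that rose (points; lines are 1 standard error) under each scaling, filter, tool, offset and covariate, filled where the adjusted p-value was under 0.05. *Abce1* and *Ascc3* lose the call with 4 surrogate variables or without 3 WT mice, and *Nemf* and *Ltn1* lose it under more settings.

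Per kilobase of merged exons, which allows genes to be set beside each other, the members spanned a wide range in WT liver. *Tcf25* had the highest level, with 24.7 ± 1.63 CPM per kilobase (SD, n = 8), and on this scale its WT mice did not overlap with those of any other member. *Abce1* (11.7 ± 1.31), *Pelo* (11.4 ± 2.03) and *Hbs1l* (10.2 ± 0.929) followed with overlapping ranges. *Ascc2* (5.41 ± 0.588), *Ltn1* (4.57 ± 0.418) and *Ankzf1* (3.79 ± 0.458) formed a further overlapping series. *Gigyf2* (2.43 ± 0.193) lay apart from its neighbours, and *Nemf* (1.90 ± 0.174) and *Ascc3* (1.504 ± 0.147 CPM per kilobase) were lowest, with overlapping ranges. Merged exons include rare isoforms, and part of this order changed over the longest transcript of each gene. On that scale *Tcf25* (26.6 ± 1.75) was followed by *Hbs1l* (22.1 ± 2.01) with an overlapping range and then by *Abce1* (18.5 ± 2.08) and *Pelo* (11.4 ± 2.03). *Gigyf2* was at 6.03 ± 0.479 and overlapped with *Ankzf1*, and *Nemf* (4.23 ± 0.389) overlapped with *Ltn1*. *Tcf25* had the highest and *Ascc3* the lowest mean by either length.

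**Figure D4:**
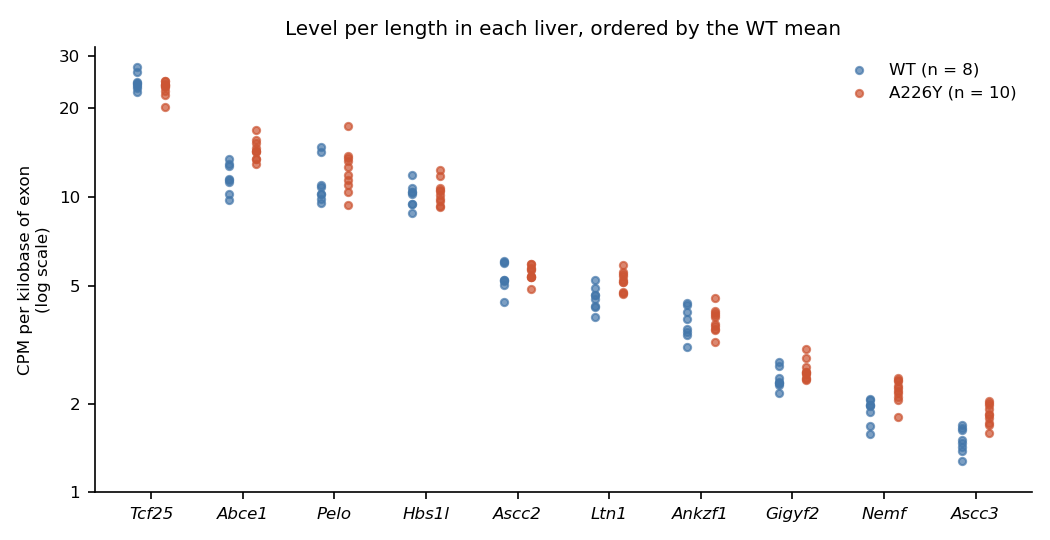
Level of each member per kilobase of merged exons (CPM per kilobase, log scale) in 8 WT (blue) and 10 A226Y (orange) mice, ordered by the WT mean. On this scale *Tcf25* stands apart at the top, and *Nemf* and *Ascc3* are lowest at 1.90 and 1.504 CPM per kilobase in WT.

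With the genotype means removed, the members did not vary as one block between mice. Over the 18 mice the Pearson correlation of log2 CPM ran from -0.48 (*Ltn1* with *Tcf25*) to 0.73 (*Abce1* with *Gigyf2*). Among the 4 genes that rose it lay between 0.40 (*Nemf* with *Ascc3*) and 0.66 (*Ltn1* with *Ascc3*). The tested genes outside the members that followed *Ascc3* most closely were *Med14* (r = 0.87), *Ppp6r3* (r = 0.87) and *Chd6* (r = 0.85), with 8763, 9378 and 19093 merged exon bases. These correlations share the libraries and their tilt, and are given as a description.

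Within the 10 A226Y mice, the members were also set against *Rps2*. The counts of *Rps2* do not separate wild-type from mutant transcripts. Its level is therefore neither a measure of the mutant share nor of the wild-type allele alone. *Nemf* had the highest Pearson's r, of 0.67 (permutation p = 0.0291), with a Spearman's rho of 0.64 (permutation p = 0.0535), and *Ankzf1* the highest rho, of 0.66 (permutation p = 0.0427). Without the 2 mice farthest from the median *Rps2* level, r was 0.82 for *Nemf*, rose from 0.46 to 0.79 for *Pelo* and from -0.02 to 0.43 for *Gigyf2*, dropped from 0.59 to 0.22 for *Ankzf1* and turned from 0.19 to -0.17 for *Ltn1*. After adjustment over the 10 members the p-values of *Nemf* were 0.291 and 0.202. For the other 9 members r ran from -0.36 (*Ascc2*) to 0.59 (*Ankzf1*), and their smallest adjusted permutation p-values were 0.359 for r and 0.202 for rho, so no relation with the *Rps2* level passed the adjustment in 10 mice.

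Of 31 other genes of collision sensing, ribosome rescue and the removal of chain and message, 7 were higher in A226Y and none was lower. Over all tested genes the shares were 7.27% and 7.03%. The list was chosen with earlier results of these data known, so its count is given as a description. The median of its log2 fold changes was 0.049. By role, 1 of 13 genes of collision sensing and ribosomal ubiquitin passed the test, 1 of 2 of ribosome splitting, 2 of 3 of peptide extraction and release, 1 of 2 ligases that recognise the tails, 1 of 5 of mRNA decay and 1 of 2 release factors. Neither of the 2 genes of translational repression and neither of the 2 rescue GTPases passed. *Gcn1* is listed in the annotation as *Gcn1l1*.

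*Klhdc10*, whose product recognises alanine-tailed chains as a subunit of a ubiquitin ligase, had the smallest p-value of this list. It ran from 65.9 to 79.9 CPM in A226Y (median 72.6) and from 48.5 to 66.8 CPM in WT mice (median 56.0), so that 9 of 10 A226Y mice lay above every WT mouse. The log2 fold change was 0.37 with a standard error of 0.06 (edgeR, adjusted p = 0.00156). It passed the threshold in every alternative fit, with a lowest log2 fold change of 0.22 with the surrogate variables (adjusted p = 0.0459).

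*Ufd1* (log2 fold change 0.30) and *Nploc4* (0.22) encode the partners of the p97 ATPase that draws the tagged chain out of the large subunit. With 4 surrogate variables *Ufd1* was at 0.11 (adjusted p = 0.514) and *Nploc4* at 0.096 (adjusted p = 0.413). The gene of p97 itself, *Vcp*, had a log2 fold change of 0.09 and did not pass. *Trip4* (0.32) encodes a further subunit of the ASC-1 complex, whereas *Ascc1* had a log2 fold change of -0.10 and did not pass. *Trip4* lost the call in edgeR with the length offset (adjusted p = 0.0582) and with the GC offset (adjusted p = 0.0517). The same held without WT mouse 13, 14, 21 or 24. Its call was also lost with 4 surrogate variables (0.15, adjusted p = 0.323) and with the longest-transcript offset (0.23, adjusted p = 0.0946).

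*Zfp598* (0.29), the ubiquitin ligase that marks collided ribosomes, passed narrowly (edgeR, adjusted p = 0.04997), and in only 5 of 18 fits with 1 mouse left out. It lies on chromosome 17, 36.1 kilobases from the targeted *Rps2*. *N4bp2* (0.32), related to the nuclease that cuts messages at stalled ribosomes, and *Etf1* (0.25), the release factor that PELO resembles, also passed. *N4bp2* lost the call with the length offset (0.20, adjusted p = 0.0862) and without WT mouse 14 or 24. With 4 surrogate variables *Zfp598* (0.11, adjusted p = 0.571), *N4bp2* (0.17, adjusted p = 0.421) and *Etf1* (0.13, adjusted p = 0.252) all lost the call in edgeR. The other 24 genes of the list had log2 fold changes between -0.19 (*Zfp622*) and 0.17 (*Usp10*). Without WT mice 13, 14 and 24, only *Klhdc10* of the 31 genes passed. With 1 mouse left out between 4 and 7 did, the fewest without WT mouse 14. Without A226Y mouse 29, 6 were higher and 1, *Zfp622*, was lower (log2 fold change -0.28, adjusted p = 0.0116).

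**Figure D5:**
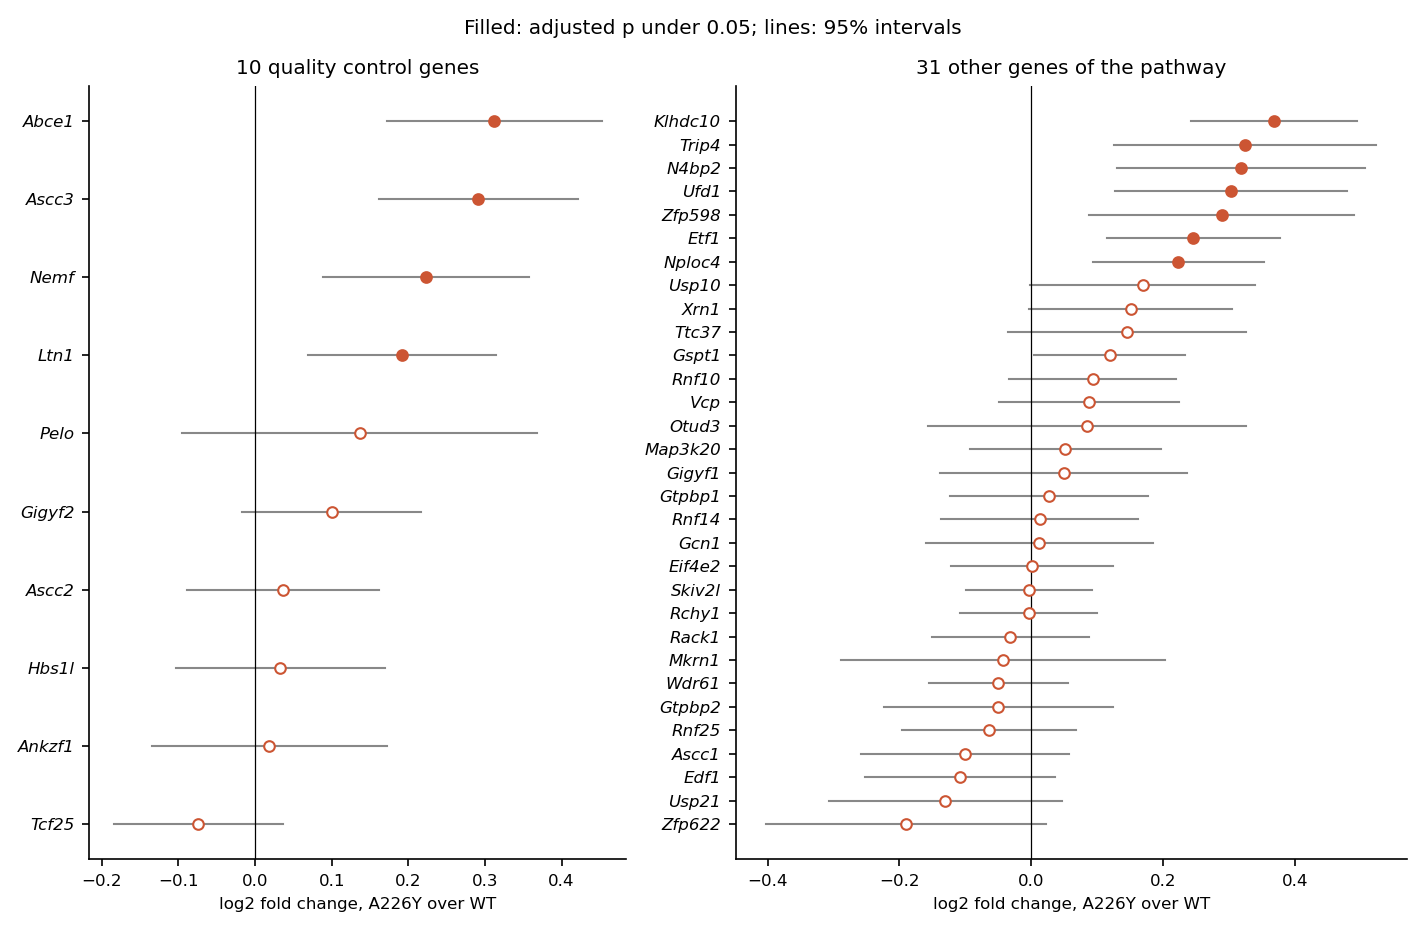
Log2 fold change of A226Y over WT with its 95% interval for the 10 members (left) and for 31 other genes of the pathway (right), filled where the adjusted p-value was under 0.05. All 4 and all 7 filled points lie above 0, between 0.19 and 0.37.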

How the data were processed

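Liver RNA of 18 mice was sequenced as short single-end reads. The authors deposited whole-number read counts per Ensembl gene, not normalized. The study's methods name RSEM with an Ensembl annotation, while the submitters' processing notes list fastp, STAR and featureCounts with GRCm38, so the counting step is uncertain. How strand was treated is not given in the sources used here. No pair of libraries of one genotype agreed within sampling noise (chi-square per degree of freedom at least 19.2).

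A gene was tested when 50% or more of either genotype's mice had 10 counts or more (13353 genes), with edgeR 4.0.16 in R 4.3.3 (TMM scaling, quasi-likelihood test, no covariates, Benjamini-Hochberg adjustment). Standard errors were the log2 fold change over the square root of F. The common biological coefficient of variation was 0.194, so spread between mice, not depth, set the precision. Intervals are 95% t intervals on the moderated total degrees of freedom of the fit. Single genes were also compared with exact permutation tests of log2 CPM (prior count 2).

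Symbols, positions, exon lengths and transcript GC came from GENCODE M21 (GRCm38), with length and GC for 99.6% of tested genes. Promoter sequences of 10 of 10 members were matched in the RefSeq table. Alternatives were other scalings and filters, 4 surrogate variables (sva 3.50.0), DESeq2 1.42.0, limma 3.58.1 (voom), per-library lowess offsets (pseudocount 0.5, span 0.3) and leaving out mice. The fits were also run on simulated counts. These had larger log2 changes than the members, a smaller spread and no hidden factor for the surrogate variables to find. They therefore do not cover effects of the size reported here. All 10 members, *Rps2*, every pathway gene past the threshold and the 3 genes most correlated with the member of smallest p-value were named; *Gcn1*, *Vcp*, *Ascc1*, *Zfp622* and *Usp10* were named after their values were seen. One further pathway gene is not reported here and is in none of the counts over the 31 genes. The members and lists were chosen with earlier results of these data known.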

Additional observations from a re-analysis of the deposited data

Results flagged for a closer look

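The library of A226Y mouse 23 held 62126131 counts, far above the next highest A226Y library with 33543360. Among 24 groups of values checked in this way (the 10 members, *Rps2* and the library totals in each genotype) it was the only one that stood apart, and chance alone gives about 1 in 20 such groups. It had the highest *Hbs1l* (74.7 CPM) and *Nemf* (25.7 CPM) and the lowest *Tcf25* (109 CPM) and *Abce1* (77.8 CPM) among them. Without it the log2 fold changes were 0.33 for *Abce1*, 0.29 for *Ascc3*, 0.21 for *Nemf* and 0.18 for *Ltn1*, and *Ltn1* had an adjusted p-value of 0.0515 (edgeR).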

How the results depend on the processing

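*Abce1* and *Ascc3* kept their direction in every alternative and their call in all but the fit with 4 surrogate variables and the fit without WT mice 13, 14 and 24. The number of members called was 4 in the reported fit, 2 with the length offset, 2 with the GC offset, 0 with the surrogate variables and 0 without the 3 WT mice. The number over all genes was 1910, against 1559 and 1642 with these offsets, 285 with surrogate variables and 131 without the 3 WT mice. That of the pathway list was 7, against 5, 6, 1 and 1 in the same order. Leaving out single mice gave counts from 2 to 4 members, from 4 to 7 pathway genes and from 1255 (without WT mouse 14) to 2560 genes. The members fell to 2 without WT mouse 13, 14 or 24, and the pathway genes to 4 without WT mouse 14. Only members that were not called changed sign, namely *Ankzf1* (-0.14 with the surrogate variables, -0.043 without the 3 WT mice, and -0.019 to 0.051 with 1 mouse left out), *Ascc2* (-0.094, -0.042 and -0.0012 to 0.062 in the same order) and *Gigyf2* (-0.018 with the surrogate variables and -0.018 with the length offset). The cause of these shifts was not tested, although fits without mice also hold fewer samples. An offset on the length of the longest transcript, and the fit without 3 WT mice, were chosen after seeing the data. With library size as the only scaling 67.9% of the called genes were higher, against 50.8%. No paired analysis was possible because the sample labels give no pairing of mice between the genotypes.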
